A study of Mus musculus with 8 samples.

Results

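The miR-23/27/24 clusters are a pair of paralogous groups of miRNA genes, each made of 1 hairpin of the miR-23, miR-27 and miR-24 families. The a cluster holds Mir23a, Mir27a and Mir24-2, and the b cluster holds Mir23b, Mir27b and Mir24-1. The members were chosen by name from a list of mature products of these hairpins, and 10 of the 697 miRNAs in the count tables are on it. miR-23a-5p, a further arm of Mir23a with 7 to 21 counts a library, is not on the list. Of the 10, 4 come from the a cluster alone (mmu-miR-23a-3p, mmu-miR-27a-3p, mmu-miR-27a-5p and mmu-miR-24-2-5p), 5 from the b cluster alone (mmu-miR-23b-3p, mmu-miR-23b-5p, mmu-miR-27b-3p, mmu-miR-27b-5p and mmu-miR-24-1-5p), and mmu-miR-24-3p is made by both. The prefix mmu, which stands for the mouse, is left out from here on. For a test a miRNA needed more than 100 counts on average in the 8 libraries, which 9 of the 10 had and miR-27a-5p had not. The comparison of interest was that of the a cluster with the b cluster in cardiomyocytes of failing hearts.

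The hairpins of such a cluster are carried by 1 primary transcript. Drosha cuts each hairpin out of it, Dicer opens the hairpin to a duplex of its 5p and 3p arms, and an Argonaute protein keeps mostly 1 arm, which finds target mRNAs with its seed (bases 2 to 8). The 3p arms are the guide strands usually studied in these families, and the clusters are known from endothelial cells and vessel growth as well as from the heart muscle, where miR-24 and miR-23a have been linked to calcium handling and hypertrophy.

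Small RNA libraries were made from cardiomyocytes isolated by Langendorff perfusion from male mice, 14 weeks after surgery done at 2 months of age. In the TAC group (4 mice) the transverse aorta was narrowed, a surgery that loads the heart with pressure and leads to heart failure, and the Sham group (4 mice) had the surgery without narrowing. Each library holds the RNA of 1 mouse, no allele is given for either group, ketamine and xylazine are given as the anaesthetics of the TAC surgery, and the strain is not given in the sources used here. The libraries hold between 4005668 and 5392576 counts on miRNAs in Sham and between 5507169 and 7798943 in TAC. The 5 markers fixed for cardiomyocytes were all counted, with a sum of 177299 ± 16433 CPM (counts per 1000000 miRNA counts; SD, n = 4) in Sham and 222021 ± 21213 CPM (SD, n = 4) in TAC, of which miR-1a-3p and miR-133a-3p made up nearly all. In Sham these had 108665 and 67356 CPM, and miR-499-5p had 719, miR-208a-3p 519 and miR-208b-3p 41.3. In TAC miR-1a-3p had 158119 CPM and miR-133a-3p 62669, and miR-499-5p had 733, miR-208a-3p 427 and miR-208b-3p 72.6. The mean was thus higher in TAC for miR-1a-3p, miR-499-5p and miR-208b-3p, and lower for miR-133a-3p and miR-208a-3p. The endothelial miR-126a-3p and miR-126a-5p were present as well, and their values are given with the other marker lists. In bulk RNA of this kind, fewer cells of a type and less RNA per cell cannot be told apart.

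The mature sequences show which members can be told apart and which share a seed. Of the 697 names, 593 matched a mature sequence of RefSeq (GRCm38.p6), among them 9 of the 10 members. They are given 5′ to 3′ with the seed in capitals, first the 3p arms and then the 5p arms.
miR-23a-3p: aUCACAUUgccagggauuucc
miR-27a-3p: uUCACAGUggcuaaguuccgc
miR-27b-3p: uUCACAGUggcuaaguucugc
miR-24-3p: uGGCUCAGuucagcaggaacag
miR-27a-5p: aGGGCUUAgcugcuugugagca
miR-27b-5p: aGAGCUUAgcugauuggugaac
miR-24-2-5p: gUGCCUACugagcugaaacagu
miR-24-1-5p: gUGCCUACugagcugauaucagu
miR-23b-5p: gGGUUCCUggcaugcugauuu
miR-27a-3p and miR-27b-3p share the seed UCACAGU and differ at 1 of 21 bases, C19U (positions from the 5′ end, the a form first). A tag that ends before base 19 fits both, and how such tags were assigned is not given in the sources used here. The member without a matched sequence is miR-23b-3p. The study's PCR primer for miR-23b-3p, designed from the mature sequence, differs from miR-23a-3p at base 19 alone. Short tags may therefore fit both miR-23a-3p and miR-23b-3p as well. The 5p arms of miR-24 share the seed UGCCUAC and differ at A17U, C19U, A20C, G21A and U22G, with 17 of 22 bases identical. The 5p arms of miR-27 have different seeds, GGGCUUA and GAGCUUA, and are identical at 14 of 22 bases. Among the other miRNAs that passed this minimum and had a matched sequence, none shared a seed with a member.

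On GRCm38 the a cluster lies on the plus strand at chr8:84208518-84208921, a span of 404 bases, and the b cluster on the plus strand at chr13:63300484-63301275, a span of 792 bases. The end of Mir24-2 overlaps an exon of the lincRNA Gm26532, and no gene of the annotation covers Mir23a or Mir27a. The b cluster lies within the protein-coding gene 2010111I01Rik on the same strand, where Mir23b is intronic and Mir27b and Mir24-1 overlap an annotated exon, and within introns of Fancc on the opposite strand. The hairpins of miR-27, with both mature arms in capitals, differ in their loops and in the 5p arm while the 3p arms are nearly the same.
Mir27a: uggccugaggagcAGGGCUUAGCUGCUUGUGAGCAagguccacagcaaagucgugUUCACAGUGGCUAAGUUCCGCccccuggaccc
Mir27b: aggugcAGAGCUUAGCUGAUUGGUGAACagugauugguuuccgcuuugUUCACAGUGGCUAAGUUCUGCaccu

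In Sham cardiomyocytes the b cluster outweighed the a cluster, through 1 member. miR-27b-3p had 45351 ± 3669 CPM (SD, n = 4) and ranked 7 of all miRNAs by counts. It was followed by miR-24-3p with 13476 ± 1902 CPM, miR-27a-3p with 6835 ± 702 CPM, miR-23a-3p with 2998 ± 311 CPM and miR-23b-3p with 1759 ± 166 CPM (SD, n = 4), and the ranges of neighbours in this order did not overlap. These levels were not divided by miRNA length, and how tags that fit both paralogs were assigned is not given. How well each sequence is captured in a small RNA library was not calibrated. The 5p arms were far lower. miR-24-2-5p had 615 ± 105 CPM, and the other 5p arms lay between 13.3 CPM (miR-27a-5p) and 46.3 CPM (miR-27b-5p). Of the counts on the a cluster in Sham, 65.3% ± 0.251 were miR-27a-3p and 28.7% ± 1.06 were miR-23a-3p. Of those on the b cluster, 96.1% ± 0.465 were miR-27b-3p and 3.74% ± 0.465 were miR-23b-3p (SD, n = 4). The a form was thus the larger one in the miR-23 family and the smaller one in the miR-27 family.

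**Figure D1:**
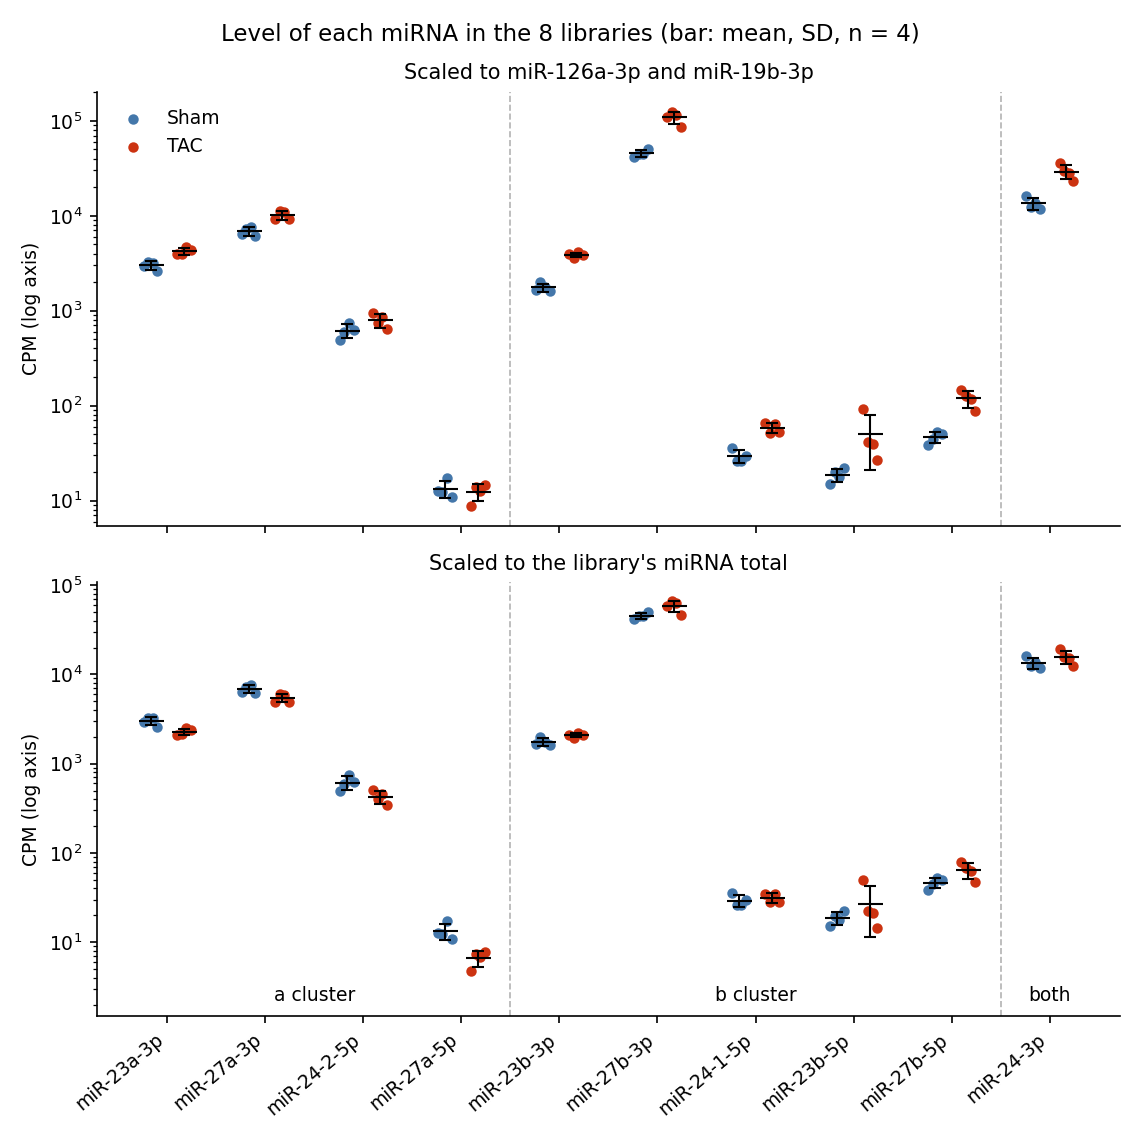
Level of the 10 mature miRNAs in CPM on a log axis, scaled to the reference miRNAs (top) and to the library's miRNA total (bottom). Points are the 4 Sham and 4 TAC libraries (mice 1 to 4 from left to right), bars are mean and SD, and dashed lines separate the a cluster, the b cluster and miR-24-3p. In the top panel all TAC points lie above all Sham points for every miRNA but miR-24-2-5p and miR-27a-5p, and in the bottom panel those of miR-23a-3p, miR-27a-3p and miR-27a-5p lie below them.

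Within the libraries the a forms made up a smaller share of the miR-23 and of the miR-27 3p counts in TAC than in Sham. A ratio of counts inside 1 library needs no normalization, and it was taken for 10 pairs of members or sums as log2 of (count + 1) over (count + 1). miR-23a-3p made up 63.7%, 62.2%, 64.4% and 61.7% of the miR-23 3p counts in Sham mice 1 to 4. In TAC mice 1 to 4 it made up 50.1%, 52.4%, 53.3% and 53.2%. The highest TAC library lay far below the lowest Sham library, and the widest 95% Wilson interval of a single library spanned 1.47 percentage points. On the log2 scale the ratio of miR-23a-3p to miR-23b-3p was 0.77 ± 0.08 in Sham and 0.13 ± 0.08 in TAC (SD, n = 4), a difference of -0.64 with 0.50 between the nearest libraries. A two-sided exact permutation test gave p = 0.0286, which is the lowest value that 4 libraries against 4 can reach. In counts, miR-23a-3p went from 1.71 ± 0.093 times miR-23b-3p to 1.09 ± 0.062 times.

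The miR-27 pair, which shares its seed, differed by a similar amount. miR-27a-3p made up 13.4%, 13.9%, 14.5% and 10.8% of the miR-27 3p counts in Sham mice 1 to 4, and 7.74%, 8.42%, 8.72% and 9.61% in TAC mice 1 to 4. Sham mouse 4 was nearest to the TAC libraries, and the groups did not overlap. The log2 ratio of miR-27a-3p to miR-27b-3p was -2.73 ± 0.21 in Sham and -3.41 ± 0.14 in TAC (SD, n = 4), a 1.60-fold lower ratio (two-sided exact permutation test, p = 0.0286). For the summed counts of the clusters, miR-24-3p left out, the a to b ratio was 1.63-fold lower in TAC (exact permutation test, p = 0.0286), with a share of the a cluster of 18.2% ± 2.04 in Sham and 12% ± 1.18 in TAC (SD, n = 4).

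The 5p arms of miR-24, the only products that tell Mir24-2 from Mir24-1, gave a difference of the same sign. miR-24-2-5p had 13.9, 23, 28.6 and 21.0 times the counts of miR-24-1-5p in Sham mice 1 to 4, and 14.5, 14.3, 13.4 and 12 times in TAC mice 1 to 4. Sham mouse 1 lay among the TAC libraries, so the groups overlapped (log2 difference -0.63, exact permutation test, p = 0.0857). This ratio rests on few counts, between 119 and 218 of miR-24-1-5p a library. Inside each cluster the balance of the families differed less. The ratio of miR-27a-3p to miR-23a-3p was 2.28 ± 0.093 in Sham and 2.41 ± 0.317 in TAC, and that of miR-27b-3p to miR-23b-3p was 26.0 ± 3.66 and 28.1 ± 4.79 (SD, n = 4), with overlapping groups (exact permutation tests, p = 0.571 and p = 0.543).

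Adjusted by Benjamini-Hochberg over the 10 ratios, the p of 0.0286 became 0.0571 for each of the 5 ratios that reached it, so none of them passed 0.05. Ratios that separated the groups were not rare in these libraries. Of the 24753 ratios between 2 tested miRNAs, 21.7% did not overlap between Sham and TAC in either direction, 30.5% differed by at least as much as miR-23a-3p to miR-23b-3p and 27.9% by at least as much as miR-27a-3p to miR-27b-3p.

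**Figure D2:**
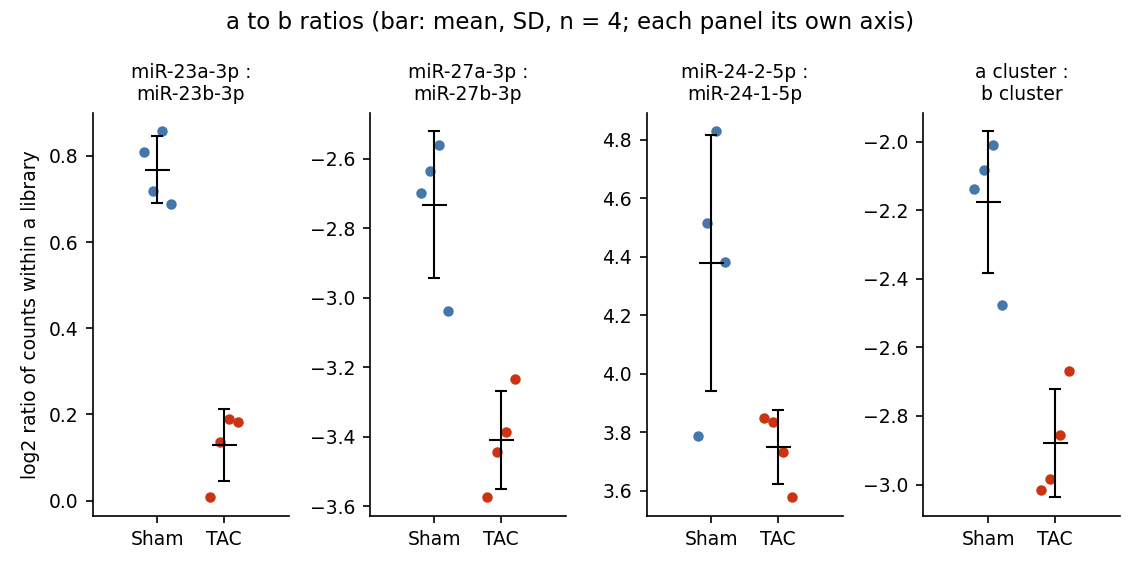
Log2 ratio of a to b counts within each library for the miR-23 pair, the miR-27 pair, the miR-24 5p pair and the summed clusters, in 4 Sham and 4 TAC libraries (points, mice 1 to 4 from left to right) with mean and SD. Axes differ between panels. Every TAC point lies below every Sham point except in the miR-24 5p pair, where Sham mouse 1 lies among the TAC points.

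To compare levels between groups the counts need a scaling. The study's pair of reference miRNAs, miR-19b-3p and miR-126a-3p, entered as 1 factor of 0.537 on the TAC library sizes, and CPM scaled this way are called reference-scaled. The paper gives both as unaltered and checked by quantitative PCR, which the counts used here cannot test. Fold changes of all 223 miRNAs past the minimum were tested with edgeR, and the threshold for a call was an adjusted p under 0.05 together with a fold change over 1.7. All 5 b members and miR-24-3p were called higher in TAC and 0 of the 3 tested a members, while 36.8% of all tested miRNAs were called higher and 0.897% lower. At an adjusted p under 0.05 alone, 8 of the 9 tested members and 63.7% of all tested miRNAs were higher. All 4 TAC libraries lay above all 4 Sham libraries in 8 of the 9 tested members and in 54.7% of all tested miRNAs. The median log2 fold change was 1.26 over the b members and 0.50 over the tested a members, against 0.61 over all 223. The b members stood at ranks 14 to 44 of 223 from the highest log2 fold change down, and the tested a members at 123 (miR-27a-3p), 139 (miR-23a-3p) and 167 (miR-24-2-5p). In an exact permutation test that computed the factor anew in each arrangement, chosen after seeing the data, p was 0.0286 for each of the 5 b members, 0.0571 for miR-23a-3p, miR-27a-3p and miR-24-3p, and 0.143 for miR-24-2-5p.

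miR-23b-3p had 1669, 1987, 1771 and 1608 reference-scaled CPM in Sham mice 1 to 4 and 3920, 3620, 4114 and 3874 in TAC mice 1 to 4. The TAC libraries lay close together and well above all Sham libraries. It rose by a log2 fold change of 1.14 (SE 0.11, edgeR adjusted p = 6.43e-05). Its paralog miR-23a-3p had 2923, 3271, 3208 and 2591 in Sham and 3941, 3980, 4689 and 4396 in TAC, again without overlap. The log2 fold change of miR-23a-3p was 0.50 (SE 0.12, edgeR adjusted p = 0.00496), which is below the fold change of 1.7. Relative to the median of all tested miRNAs, miR-23b-3p stood at 0.54 and miR-23a-3p at -0.10.

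miR-27b-3p had 41347, 45210, 44618 and 50229 reference-scaled CPM in Sham mice 1 to 4 and 109801, 123115, 116030 and 86266 in TAC mice 1 to 4. TAC mouse 4 was the lowest of its group and still above all Sham libraries. The log2 fold change was 1.26 (SE 0.12, edgeR adjusted p = 6.43e-05). miR-27a-3p had 6373, 7281, 7573 and 6113 in Sham and 9215, 11320, 11085 and 9166 in TAC. Its groups did not overlap either, and its log2 fold change was 0.58 (SE 0.12, edgeR adjusted p = 0.00298), below the fold change of 1.7.

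miR-24-3p, which cannot be assigned to a cluster, had 16014, 12440, 13778 and 11674 reference-scaled CPM in Sham and 35633, 29281, 28542 and 23314 in TAC. Mouse 1 was the highest of both groups, and the groups were apart. The log2 fold change of 1.12 (SE 0.15, edgeR adjusted p = 2.67e-04) lay nearer to those of the b members than to those of the a members. The 5p arm of Mir24-1, miR-24-1-5p, had a log2 fold change of 1.00 (SE 0.18, edgeR adjusted p = 0.00145). That of Mir24-2, miR-24-2-5p, had 615 ± 105 reference-scaled CPM in Sham and 796 ± 134 in TAC (SD, n = 4) with overlapping groups, and did not pass (log2 fold change 0.37, SE 0.17, edgeR adjusted p = 0.0822).

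Of the lower b arms, miR-27b-5p rose from 46.3 ± 6.34 to 119 ± 24.4 reference-scaled CPM (SD, n = 4; log2 fold change 1.36, edgeR adjusted p = 4.31e-04). miR-23b-5p had 70, 107, 86 and 89 counts in Sham mice 1 to 4 and 274, 173, 135 and 105 in TAC mice 1 to 4. TAC mouse 1 held the highest count of miR-23b-5p, and the log2 fold change of 1.42 (edgeR adjusted p = 0.00711) was 0.95 without that library. miR-27a-5p was under the minimum for the test, with 44 to 84 counts in Sham and 26 to 58 in TAC. Without a minimum on counts its log2 fold change was -0.09 with the reference scaling (edgeR adjusted p = 0.859) and -0.62 with TMM (edgeR adjusted p = 0.25). By library total all TAC libraries lay below all Sham libraries for miR-27a-5p, with a log2 difference of -0.99 (exact permutation test, p = 0.0286). The same held for 27.4% of all tested miRNAs.

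Over the scalings tried, the direction of the 3 tested a members depended on the scaling, and that of the 5 b members did not. The log2 fold changes of all 5 b members stayed above 0 with the reference miRNAs, with edgeR's TMM, with library totals, with clean tags as library size and with DESeq2's own size factors. Those of the 3 tested a members were above 0 with the reference miRNAs and below 0 with TMM and with library totals. miR-23a-3p was -0.18 with TMM (edgeR adjusted p = 0.234) and -0.39 with library totals (edgeR adjusted p = 0.0413). At that threshold 1.35% of all tested miRNAs were higher with library totals and 20.6% lower. No b member passed it there, with miR-27b-3p at 0.37 (edgeR adjusted p = 0.0578), miR-23b-3p at 0.24 (0.131), miR-27b-5p at 0.47 (0.106), miR-23b-5p at 0.52 (0.292) and miR-24-1-5p at 0.10 (0.689). With TMM the median of all tested miRNAs was -0.08, and miR-23b-3p at 0.45 (edgeR adjusted p = 0.0196) and miR-27b-3p at 0.57 (edgeR adjusted p = 0.0263) were the members with an adjusted p under 0.05, where 4.93% of all tested miRNAs were higher and 8.52% lower. Neither kept it without Sham mouse 3 (edgeR adjusted p = 0.0544 and 0.0540 in this order), without TAC mouse 2 (0.0601 and 0.0796) or without TAC mouse 3 (0.0532 and 0.070), and miR-27b-3p also lost it without TAC mouse 1 (0.0574). Over the 8 TMM fits that leave out 1 library, the log2 fold change ran from 0.44 to 0.53 for miR-23b-3p and from 0.48 to 0.70 for miR-27b-3p. In the same fits miR-24-3p had an adjusted p under 0.05 without Sham mouse 1 (edgeR adjusted p = 0.0143) and without TAC mouse 4 (0.0234), and miR-27b-5p without Sham mouse 1 (0.0429), Sham mouse 4 (0.0418) or TAC mouse 4 (0.0159). No member was called higher or lower with TMM at the fold change of 1.7, where 1.35% of the tested miRNAs passed as higher and 4.48% as lower, and none was with library totals, where 0.448% passed as higher and 10.3% as lower. At an unadjusted p below 0.05, 4 members and 12.1% of all tested miRNAs were higher with TMM, and 5 members and 16.1% with DESeq2's own size factors. At an adjusted p below 0.05, 4 members and 8.52% of all tested miRNAs were higher with DESeq2's own size factors, which called 0 members at the fold change of 1.7, and 4 members and 8.07% with clean tags in edgeR, which called 1, miR-27b-5p.

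As a share of all miRNA counts, the a cluster held 0.98%, 1.12%, 1.15% and 0.934% in Sham mice 1 to 4 and 0.757%, 0.862%, 0.893% and 0.763% in TAC mice 1 to 4. All TAC libraries were lower (exact permutation test, p = 0.0286, 0.0857 adjusted over 3 shares). As a share of clean tags the a cluster differed by -0.00071 percentage points (exact permutation test, p = 1.0), and without the 10 most abundant miRNAs in the denominator by -0.19 (exact permutation test, p = 0.343). The b cluster held 4.72% ± 0.364 in Sham and 6.06% ± 0.857 in TAC (SD, n = 4), with TAC mouse 4, at 4.85%, inside the Sham range (exact permutation test, p = 0.0571). As a share of clean tags it was higher by 1.18 percentage points (exact permutation test, p = 0.0286). miR-27b-3p is itself among the 10 most abundant miRNAs and was kept, so for the b cluster the other 9 were left out of the denominator, and the difference of 4.29 percentage points (exact permutation test, p = 0.0286) cannot be set beside that of the a cluster. miR-24-3p held 1.35% ± 0.19 and 1.57% ± 0.271 (exact permutation test, p = 0.257), and p was 0.0286 as a share of clean tags and 0.0571 without the 10 most abundant miRNAs (exact permutation tests). By library totals the groups of 27.4% of the tested miRNAs stood apart with TAC lower and of 3.59% with TAC higher. The former held for 2 of the 3 tested a members (miR-23a-3p and miR-27a-3p), and neither held for any of the 5 b members.

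miR-27a-3p and miR-27b-3p, which have the same seed, were also summed. Their sum was 52186 ± 3527 CPM by library total in Sham and 63881 ± 9086 in TAC (SD, n = 4; log2 difference 0.28, exact permutation test, p = 0.114). The sum of miR-23a-3p and miR-23b-3p was 4757 ± 462 and 4366 ± 282 (log2 difference -0.12, exact permutation test, p = 0.229). Both sums overlapped between groups by library total, and both were above all Sham libraries in reference-scaled CPM.

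**Figure D3:**
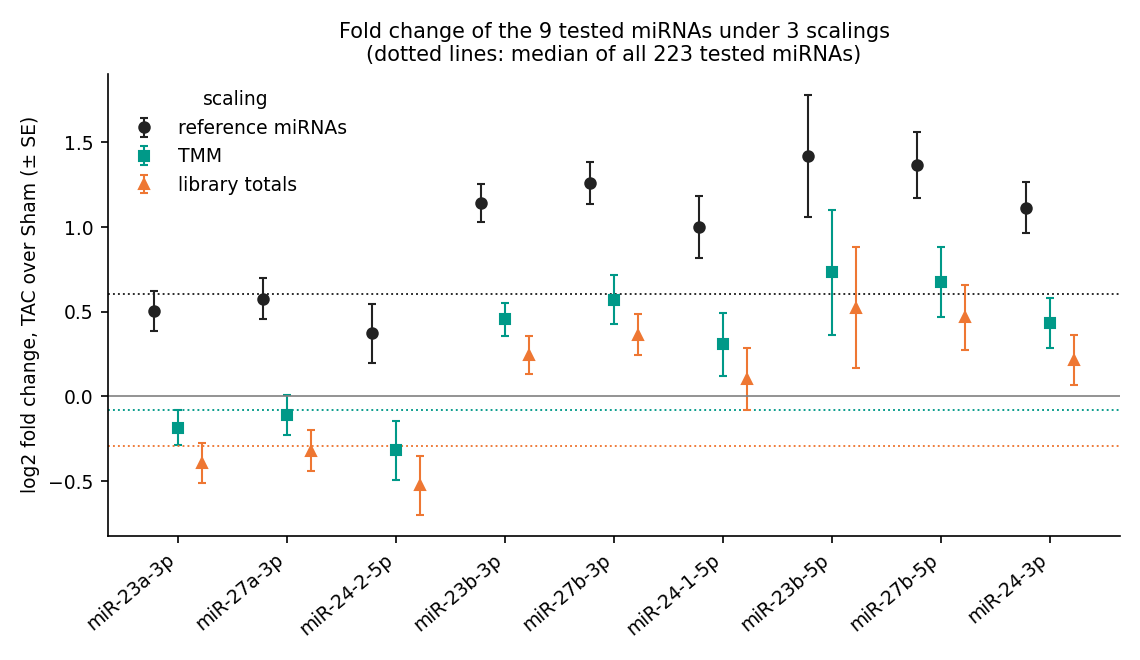
Log2 fold change (TAC over Sham) with SE from edgeR for the 9 tested members, under the reference miRNAs (circles), TMM (squares) and library totals (triangles), with the median of all 223 tested miRNAs under each scaling as a dotted line. The 3 a members on the left lie near or below the dotted line of their scaling and change sign with it, and the 5 b members and miR-24-3p lie above the line and above 0 throughout.

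The arms of 1 hairpin can be set against each other in the same way, except for miR-24, whose 3p arm comes from both clusters. miR-27a-3p had 500, 595, 442 and 557 times the counts of miR-27a-5p in Sham mice 1 to 4 and 1048, 817, 877 and 635 times in TAC mice 1 to 4. The groups did not overlap (log2 difference 0.67, exact permutation test, p = 0.0286, 0.0571 adjusted over the 10 ratios), and the 5p counts behind this ratio were at most 84 a library. miR-24-3p over the sum of both miR-24 5p arms was 30.4, 19.9, 17.8 and 17.8 in Sham and 35.3, 36.7, 31.0 and 33.8 in TAC. These groups were 0.03 apart at their nearest point on the log2 scale, since Sham mouse 1 stood near the TAC libraries (log2 difference 0.70, exact permutation test, p = 0.0286, 0.0571 adjusted). Of those 5p counts most are miR-24-2-5p, from the a cluster. In this ratio the balance of the clusters and that of the arms cannot be told apart. For the arms of Mir27b and of Mir23b the groups overlapped. miR-27b-3p had 988 ± 98.7 times the counts of miR-27b-5p in Sham and 926 ± 117 times in TAC, and miR-23b-3p had 96.0 ± 16.4 and 94.2 ± 41.7 times those of miR-23b-5p (SD, n = 4; exact permutation tests, p = 0.457 and p = 0.8). The log2 difference of the miR-23b ratio was -0.13, and without TAC mouse 1 it turned to 0.21.

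**Figure D4:**
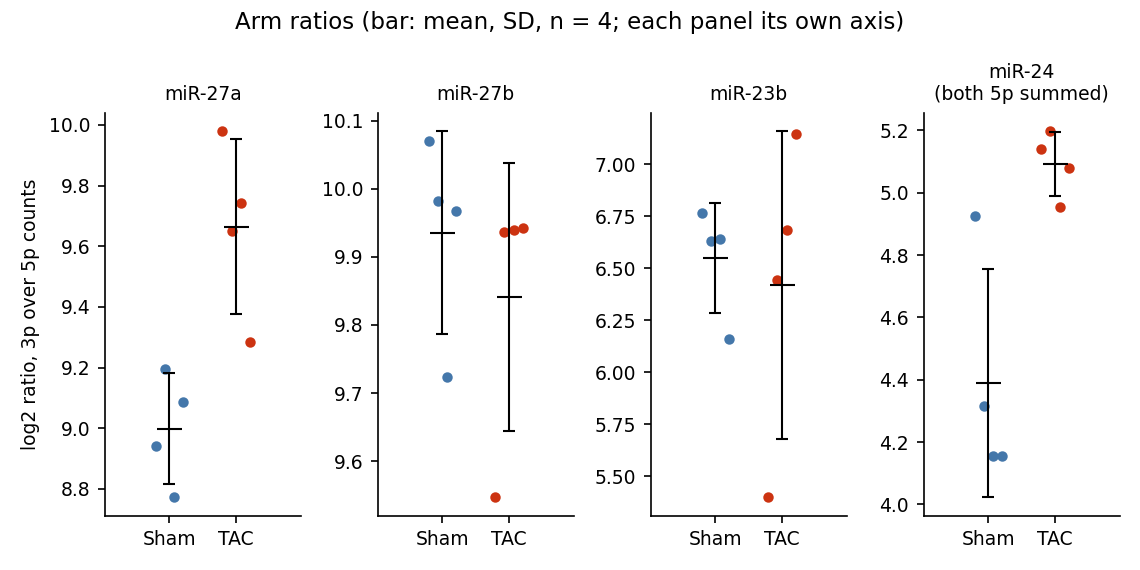
Log2 ratio of 3p to 5p counts within each library for miR-27a, miR-27b, miR-23b and miR-24 (both 5p arms summed), in 4 Sham and 4 TAC libraries (points, mice 1 to 4 from left to right) with mean and SD. Axes differ between panels. The TAC points lie above the Sham points for miR-27a and miR-24, and TAC mouse 1 lies below all other points for miR-27b and miR-23b.

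Other products of these loci were close to the limit of detection. miR-23a-5p had 7 to 21 counts a library, miR-3074-5p 3 to 11 and miR-3074-1-3p 0 to 4, where the miR-3074 hairpins lie antisense to Mir24-1 and Mir24-2. The reference miRNAs themselves had a log2 fold change of 0.10 (miR-126a-3p) and -0.10 (miR-19b-3p) with the reference scaling, near 0 by construction, and -0.80 and -1.0 by library totals.

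Of the marker lists of other cells, the endothelial one separated the groups. By library total the sum of the endothelial miRNAs miR-126a-3p and miR-126a-5p was 49248, 65606, 72051 and 53295 CPM in Sham mice 1 to 4 and 33813, 33782, 34557 and 29274 in TAC mice 1 to 4. All TAC libraries lay below all Sham libraries, as for the a cluster and for 27.4% of all tested miRNAs, and miR-126a-3p is also a reference miRNA. The erythroid list (3 miRNAs) had 962 ± 444 CPM in Sham and 330.0 ± 249 in TAC, the leukocyte list (4) 1815 ± 487 and 1109 ± 173, the fibroblast and smooth muscle list (5) 45727 ± 3244 and 41029 ± 3062, and the epithelial list (6) 315 ± 65.4 and 565 ± 562, where TAC mouse 4 held 1406 (SD, n = 4). Except for the endothelial list these sums overlapped between groups, and no listed miRNA was at 0 in every library. With the reference scaling, 4 of the 5 cardiomyocyte markers were called higher, 0 of the 2 endothelial, 1 of the 5 tested of fibroblast and smooth muscle, 0 of 2 erythroid, 0 of 3 leukocyte and 5 of 5 epithelial, beside 36.8% of all tested miRNAs. Whether the cells behind these markers take part in the a to b ratios was not tested.

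**Figure D5:**
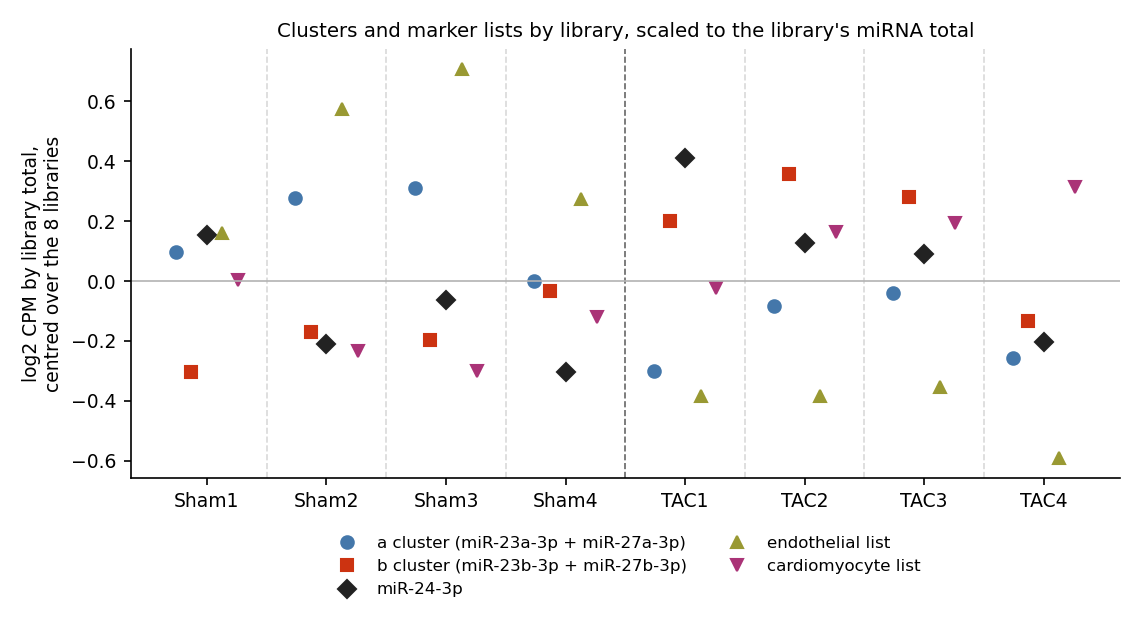
Log2 CPM by library total, centred over the 8 libraries, of the a cluster (miR-23a-3p and miR-27a-3p summed), the b cluster (miR-23b-3p and miR-27b-3p summed), miR-24-3p, and the endothelial and cardiomyocyte lists. The a cluster and the endothelial list lie higher in every Sham library than in any TAC library, and the b cluster, miR-24-3p and the cardiomyocyte list overlap between groups.

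A list of 8 miRNAs linked to low oxygen, among them miR-210-3p, the miRNA best known to be induced by HIF-1, was read beside the clusters. The list holds no member of the clusters, although the paper's discussion names miR-27b, like miR-26b, as induced by low oxygen. With the reference scaling 1 of the 8 was called higher (miR-26b-5p, log2 fold change 0.83, edgeR adjusted p = 0.00289), beside 36.8% of all tested miRNAs, and 4 were higher at an adjusted p below 0.05, beside 63.7%. Its median log2 fold change was 0.47, below the 0.61 of all tested miRNAs. miR-210-3p had 51.3 ± 11.1 CPM by library total in Sham and 39.9 ± 12.6 in TAC (SD, n = 4), and did not pass (log2 fold change 0.53, edgeR adjusted p = 0.0826). With TMM 0 of the 8 were higher and 1, miR-181c-5p, was lower at an adjusted p below 0.05 (log2 fold change -0.44, edgeR adjusted p = 0.0498), where 4.93% of all tested miRNAs were higher and 8.52% lower.

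The profiles of the clusters over the 8 libraries were also set beside those of 214 other tested miRNAs, by the root mean square difference of centred log2 CPM by library total. Nearest to the a cluster were miR-194-5p (0.069), miR-130a-3p (0.074) and miR-125b-1-3p (0.082), where the median over all was 0.31. Nearest to the b cluster were miR-22-3p (0.16), miR-208a-5p (0.16) and miR-133b-3p (0.17), with a median of 0.45, and miR-208a-5p comes from the hairpin within the cardiac myosin gene Myh6. miR-24-3p was nearest to miR-378a-5p, miR-486a-5p and miR-486b-5p (0.11 each, median 0.42). The a and b cluster profiles differed from each other by 0.38. All these profiles share their libraries and totals, and the distances are descriptions.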

How the data were processed

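Small RNA of isolated cardiomyocytes from 4 Sham and 4 TAC mice was analysed, grouped by the sample labels. The authors deposited 1 table per library of whole-number counts per mature mouse miRNA, not normalized. The submitters' processing notes name mm10 and StringTie 1.3.1, and the miRNA aligner and reference version are not given in the sources used here. No library was a copy of another. The members and all lists were chosen with earlier results of these data known.

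R 4.3.3 with edgeR 4.0.16 (glmQLFit and glmQLFTest, group as the only term) was run on the counts with Benjamini-Hochberg adjustment over 223 miRNAs, and was first tested on simulated data. The TAC library sizes were multiplied by 0.537 (mean CPM in TAC over that in Sham, averaged geometrically between miR-19b-3p and miR-126a-3p), a factor that edgeR takes as known. The SE was derived as log2 fold change divided by the square root of F. Single values were compared by two-sided exact permutation over 70 arrangements (Python 3.11.15, scipy 1.17.1). Intervals cover counting error only, and no molecular identifiers are named in the sources used here. At a biological coefficient of variation of 0.255, most scatter within a group is not counting error. Mature sequences and hairpins were read from RefSeq and positions from GRCm38. Named miRNAs were the members, the reference miRNAs, other products of the loci, the fixed lists and the 3 nearest profiles. The alternatives were other scalings (TMM, library totals, clean tags, each reference miRNA alone or per library, DESeq2 1.42.0), count minimums, the replicate number as a block, and each library left out.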

Additional observations from a re-analysis of the deposited data

Results flagged for a closer look

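Of 46 groups of 4 libraries examined for a single distant value, 1 had one, where chance marks about 1 in 20. The log2 ratio of miR-27b-3p to miR-27b-5p was 9.55 in TAC mouse 1, and all other TAC libraries lay at 9.94. The gap was 0.985 of the range, above Dixon's 95% critical value for 4 samples. Its counts were 324608 of miR-27b-3p and 433 of miR-27b-5p, and the cause of the distant value was not tested. Without TAC mouse 1 the log2 difference of this ratio between TAC and Sham was 0.0038, and -0.09 with it.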

How the results depend on the processing

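Called higher and lower were 82 and 2 miRNAs with the reference scaling, 6 of them members. With TMM the calls were 3 and 10 (members 0), with library totals 1 and 23 (members 0), with clean tags 5 and 5 (members 1), with DESeq2's own size factors 5 and 9 (members 0), and with miR-19b-3p alone as reference 1 was called lower. Without a count minimum 127 were called higher, and with TMM and no minimum, chosen after seeing the data, 6 and 4 (members 0). The paper writes of 4 pairs of sham and TAC mice, and the labels do not say whether equal replicate numbers form a pair. Correlations of deviations between equal numbers were 0.17, -0.37, 0.31 and -0.22, which cannot settle whether the samples were paired. With the replicate block 76 and 3 were called (members 6), and with the block and TMM 1 and 8 (members 0), where miR-23b-3p and miR-27b-3p had an edgeR adjusted p = 0.0807 and 0.0649. Over the libraries left out in turn the calls were 59 to 106 and 1 to 2 (members 6), and 1 to 4 and 4 to 9 with TMM (members 0 to 1). The single member called with clean tags, and with TMM without TAC mouse 4, was miR-27b-5p. Without TAC mouse 4, miR-24-2-5p had an edgeR adjusted p = 0.0243 with the reference scaling, at a log2 fold change of 0.52. With miR-19b-3p alone as reference, its edgeR adjusted p was 0.0310 at a log2 fold change of 0.47.

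Reversed log2 fold changes were those of a members alone. miR-23a-3p had -0.18 with TMM, -0.39 with library totals, -0.041 with clean tags, -0.13 with DESeq2's own factors, -0.18 with the replicate block and TMM, -0.039 with no minimum and TMM, and -0.39 in the permutation by totals. miR-24-2-5p had -0.32, -0.53, -0.21, -0.27, -0.32, -0.19 and -0.53 in the same order. miR-27a-3p had -0.11 (TMM), -0.32 (library totals), -0.059 (DESeq2), -0.11 (block and TMM) and -0.32 (permutation by totals). With TMM and a library left out they ran from -0.22 to -0.12 (miR-23a-3p), from -0.42 to -0.19 (miR-24-2-5p) and from -0.19 to -0.03 (miR-27a-3p), and with the reference scaling they reached 0.61, 0.52 and 0.68.

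Log2 ratio differences with a library left out ran from -0.80 to -0.65 (a to b), from -0.67 to -0.60 (miR-23a-3p to miR-23b-3p) and from -0.78 to -0.62 (miR-27a-3p to miR-27b-3p). An exact sign-flip permutation test over numbered pairs, a form of the replicate block, cannot go below p = 0.125. There the differences -0.70, -0.64 and -0.68, and 0.67 (miR-27a arms) and 0.70 (miR-24 arms), had no p below 0.05. With a library left out, some log2 ratio differences took both signs. They ran from -0.37 to 0.21 (miR-23b arms), from -0.17 to 0.0038 (miR-27b arms) and from -0.013 to 0.14 (miR-27a-3p to miR-23a-3p). The difference in the share of miR-24-3p ran from 0.10 to 0.32 percentage points. As a share of clean tags the a cluster differed by -0.00071 percentage points (exact permutation p = 1.0), the b cluster by 1.18 (p = 0.0286) and miR-24-3p by 0.25 (p = 0.0286). Without the 10 most abundant miRNAs in the denominator the a cluster differed by -0.19 (exact permutation p = 0.343). The b cluster differed by 4.29 (exact permutation p = 0.0286) without the other 9, with its member miR-27b-3p kept. The causes were not tested.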
